A study of Mus musculus with 8 samples.

Results

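The constant region genes of the antibody chains and the J chain gene were followed in laser-captured endometrium of *Thra1*PV/+ and WT mice. The members were taken by gene symbol from the deposited counts, which hold 52325 genes, and 10 of 10 were found. They are the heavy chain genes *Igha*, *Ighm*, *Ighg1*, *Ighg2b*, *Ighg2c* and *Ighg3*, the light chain genes *Igkc*, *Iglc1* and *Iglc2*, and *Jchain*. RNA-seq was carried out on endometrium cut from frozen uterine sections of 4 *Thra1*PV/+ and 4 WT female mice, all brought to metestrus before sampling. *Thra1*PV/+ mice carry the PV mutation, which encodes a dominant negative thyroid hormone receptor α1, in 1 allele of *Thra* in every tissue. For these samples, the age of the mice is not given in the sources used here. The libraries held between 48791602 and 59818887 estimated counts. WT library 1 stood apart in smooth muscle and blood genes, so results are also given without it. The p-values measure the spread between the 4 libraries of each genotype.

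An antibody is built from heavy chains, whose constant region sets the class (IgM, IgG, IgA), and light chains of the kappa or lambda type. B cells make IgM first and can switch to another class, and plasma cells, their secreting descendants, hold very large amounts of these transcripts. In mucosal tissues such as the uterus, IgA and IgM polymers are joined by the J chain and carried across the epithelium by the polymeric immunoglobulin receptor, the product of *Pigr*.

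The J chain is bound through a cysteine just before the last amino acid of the secreted IgA and IgM heavy chains, which the secreted IgG chains lack. The ends of 4 coding sequences are shown because they set apart the classes that *Jchain* can serve. Each run holds the last 30 bases, stop codon included, of the secreted form in GENCODE release M21, and capitals mark a cysteine codon in the position before the last amino acid. All lie on the minus strand of chromosome 12 in GRCm38, at chr12:113258768-113258797 (*Igha*), chr12:113420867-113420896 (*Ighm*), chr12:113328976-113329005 (*Ighg1*) and chr12:113306389-113306418 (*Ighg2b*).
Igha: atgtcagagggagatggcatcTGCtactga
Ighm: atgtctgacacaggcggcaccTGCtattga
Ighg1: aagagcctctcccactctcctggtaaatga
Ighg2b: aagaccatctcccggtctccgggtaaatga
The heavy chain genes stand in 1 block, from *Igha* (113254830 to 113260236) to *Ighm* (113418558 to 113422730). *Jchain* lies outside the antibody loci, on the minus strand of chromosome 5 (88519809 to 88527891).

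Transcripts of IgA, kappa light chain and J chain made up most of the members' counts, were higher on average in *Thra1*PV/+ than in WT endometrium and varied 94.4-fold to 120-fold between libraries. The fitted differences were 8.38-fold for *Igha*, 9.07-fold for *Igkc* and 8.32-fold for *Jchain*, and they did not pass edgeR's test, while DESeq2 called all 3 (adjusted p = 0.0177, 0.00817 and 0.0132) and voom with quality weights called *Igha* and *Igkc* (adjusted p = 0.087 and 0.0655). *Ighm* did not follow this pattern. Together the 10 genes took 0.0326% to 0.215% of all counts in the 4 *Thra1*PV/+ libraries and 0.00223% to 0.0465% in the 4 WT libraries.

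*Igha* encodes the heavy chain constant region of IgA. Its level in CPM, which are counts scaled to library size after TMM normalization, was 426, 135, 972 and 683 in *Thra1*PV/+ libraries 1 to 4, and 21.7, 196, 9.09 and 38.2 in WT libraries 1 to 4. The genotypes overlapped at a single point, since WT library 2 stood above *Thra1*PV/+ library 2, while the other 3 *Thra1*PV/+ libraries exceeded every WT library. The means were 554 ± 358 CPM and 66.1 ± 87.1 CPM (SD, n = 4 each), a log2 fold change of 3.07 (standard error, SE, 1.01, 95% interval 0.75 to 5.38, edgeR adjusted p = 0.359). Without WT library 2, the log2 fold change was 4.62 and the edgeR adjusted p was 0.0907. Without *Thra1*PV/+ library 3, they were 2.65 and 0.742. In bulk tissue, fewer cells of a type and less RNA per cell cannot be told apart.

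*Igkc* encodes the constant region of the kappa light chain and lies on the plus strand of chromosome 6 (70726435 to 70726966). It was at 390, 151, 918 and 559 CPM in *Thra1*PV/+ libraries 1 to 4, and at 20.4, 161, 7.68 and 33.7 CPM in WT libraries 1 to 4. The same 2 libraries overlapped as for *Igha*, with WT library 2 slightly above *Thra1*PV/+ library 2. The log2 fold change was 3.18 (SE 0.97, 95% interval 0.95 to 5.41, edgeR adjusted p = 0.325), and 4.64 without WT library 2 (edgeR adjusted p = 0.0773). Without *Thra1*PV/+ library 3 it was 2.72 (edgeR adjusted p = 0.695).

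*Jchain*, whose product links IgA and IgM into polymers, was at 113, 37.3, 248 and 143 CPM in *Thra1*PV/+ libraries 1 to 4. In WT libraries 1 to 4 it was at 5.59, 47.8, 2.63 and 9.11 CPM, so that WT library 2 again exceeded *Thra1*PV/+ library 2. The log2 fold change was 3.06 (SE 0.97, 95% interval 0.84 to 5.27, edgeR adjusted p = 0.342), and 4.58 without WT library 2 (edgeR adjusted p = 0.0676). Without *Thra1*PV/+ library 3 it was 2.59 (edgeR adjusted p = 0.718).

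*Ighm*, the heavy chain constant region of IgM, was at 13.6, 2.68, 5.33 and 7.95 CPM in *Thra1*PV/+ libraries 1 to 4, and at 17.0, 14.4, 6.90 and 7.54 CPM in WT libraries 1 to 4. The genotypes overlapped broadly, and the highest level was in WT library 1. The means were 7.38 ± 4.65 CPM and 11.5 ± 5.02 CPM (SD, n = 4 each), a log2 fold change of -0.63 (SE 0.51, 95% interval -1.81 to 0.54, edgeR adjusted p = 0.756). The range of *Ighm* over the 8 libraries was 6.36-fold, beside 107-fold for *Igha*, 120-fold for *Igkc* and 94.4-fold for *Jchain*.

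**Figure D1:**
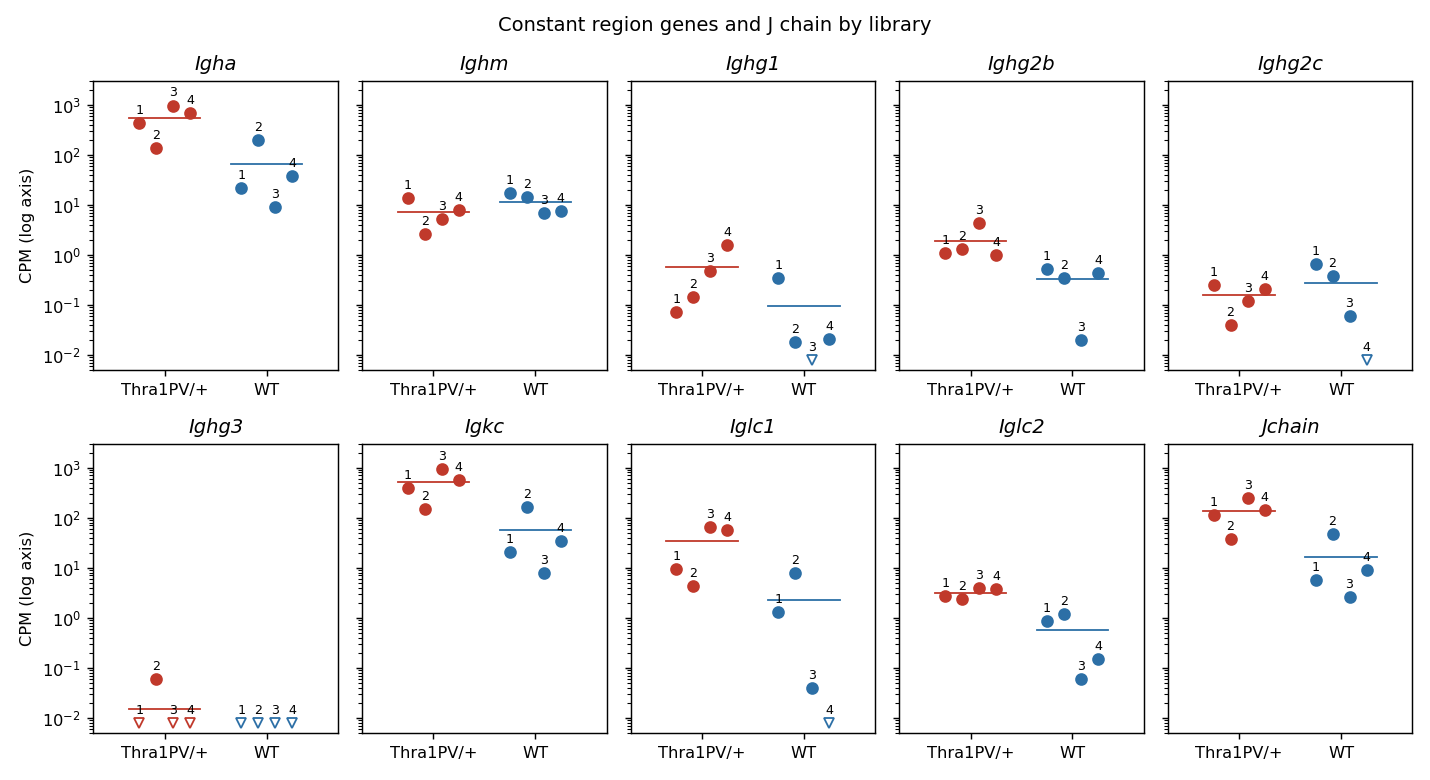
Level of each gene by library, in CPM after TMM normalization on a log axis, with *Thra1*PV/+ in red and WT in blue. Numbers are replicate numbers, horizontal lines are group means, and open triangles are libraries at 0, set at the bottom of the axis. WT library 2 (196 CPM) stands above *Thra1*PV/+ library 2 (135 CPM) for *Igha*, while *Ighg2b* and *Iglc2* show no overlap.

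The IgG genes were rare. *Ighg2b* had estimated counts of 59, 64, 210 and 58 in *Thra1*PV/+ libraries 1 to 4, and of 27, 19, 1 and 21 in WT libraries 1 to 4. The genotypes did not overlap, and *Thra1*PV/+ library 3 was far above the other 3. The log2 fold change was 2.53 (SE 0.85, edgeR adjusted p = 0.364), and 1.77 without *Thra1*PV/+ library 3 (edgeR adjusted p = 0.772).

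*Ighg2c* had 14, 2, 6 and 12 counts in *Thra1*PV/+ libraries 1 to 4, and 34, 21, 3 and 0 in WT libraries 1 to 4. Its log2 fold change of -0.78 (SE 1.07, edgeR adjusted p = 0.874) turned to 0.14 without WT library 1. *Ighg1* and *Ighg3* did not pass the filter on low counts. *Ighg1* had 4, 7, 23 and 90 counts in *Thra1*PV/+ libraries 1 to 4, and 18, 1, 0 and 1 in WT libraries 1 to 4, an overlap through WT library 1. *Ighg3* had 3 counts in *Thra1*PV/+ library 2 and 0 in the other 7 libraries, where a count of 0 allows up to 3 counts per library. The secreted coding sequences of *Ighg2b* and *Ighg2c* were 85.7% identical, and 9.29% and 14.98% of their 31-base words also occur in another gene, so the division of reads between them is uncertain. No such word of *Igha*, *Ighm*, *Igkc* or *Jchain* occurs in another gene (0 of each).

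The lambda genes lie on the minus strand of chromosome 16. *Iglc1* (19061618 to 19062071) was at 9.37, 4.26, 65.8 and 57.6 CPM in *Thra1*PV/+ libraries 1 to 4, and at 1.32, 7.69, 0.0398 and 0 CPM in WT libraries 1 to 4. *Thra1*PV/+ libraries 3 and 4 stood far above the rest, and WT library 2 exceeded *Thra1*PV/+ library 2. The log2 fold change was 3.91 (SE 1.66, 95% interval 0.11 to 7.71, edgeR adjusted p = 0.498), and 6.25 without WT library 2 (edgeR adjusted p = 0.313).

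*Iglc2* (19198396 to 19200351) was at 2.72, 2.35, 3.92 and 3.73 CPM in *Thra1*PV/+ libraries 1 to 4, and at 0.859, 1.21, 0.0597 and 0.147 CPM in WT libraries 1 to 4. It varied little within *Thra1*PV/+ endometrium, at 3.18 ± 0.764 CPM (SD, n = 4), and the genotypes did not overlap. The log2 fold change was 2.47 (SE 0.83, 95% interval 0.58 to 4.37, edgeR adjusted p = 0.363), and 3.18 without WT library 2 (edgeR adjusted p = 0.307). *Iglc2* shares 19.6% of its 31-base words with other genes, mostly *Iglc3*, and the ends of the coding sequences are shown because they make this plain. They lie at chr16:19061752-19061781 (*Iglc1*), chr16:19198536-19198565 (*Iglc2*) and chr16:19065365-19065394 (*Iglc3*), and capitals mark the cysteine codon before the last amino acid.
Iglc1: aagagtttgtcccgtgctgacTGTtcctag
Iglc2: aagagtctgtctcctgcagaaTGTctctaa
Iglc3: aagagtctgtctcctgcagaaTGTctctaa
The *Iglc2* and *Iglc3* runs are the same, and their coding sequences were 95.9% identical over their length. *Iglc3* itself had a log2 fold change of 3.07 (edgeR adjusted p = 0.198). DESeq2 called it as higher (adjusted p = 0.00168), while edgeR and voom did not call it. Of the other constant region genes, *Ighd* had 0 to 48 counts, *Ighe* had 4 counts in WT library 4 and 0 elsewhere, and *Iglc4* was at 0 in all 8 libraries.

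Calls required a difference of at least 2-fold and an adjusted p of 0.1 or less, with Benjamini-Hochberg adjustment over all 18174 tested genes. Of the 10 members, 8 were tested and edgeR's quasi-likelihood test called 0, where 0.99% of all tested genes were. At an unadjusted p under 0.05, 6 of the 8 were higher in *Thra1*PV/+ endometrium, beside 5.05% of all tested genes, and 0 were lower, beside 4.72%. The median log2 fold change of the 8 was 2.80, and that of all tested genes was -0.05. The 2 members that did not pass the filter on low counts are not part of these figures. DESeq2, the test that the paper used, called 5 members as higher, *Igha*, *Igkc*, *Jchain*, *Iglc2* and *Ighg2b*, where it called 1.89% of all genes with a p-value as higher. Limma voom with sample quality weights called 3, *Igha*, *Igkc* and *Iglc2*, where 1.39% of all tested genes were called as higher. Without WT library 2, edgeR called *Igha*, *Igkc* and *Jchain*, where it called 0.74% of all tested genes as higher. With any other single library left out it called 0 members. The genotypes did not overlap for 2 of the 8, *Ighg2b* and *Iglc2*, beside 6.04% of all tested genes.

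**Figure D2:**
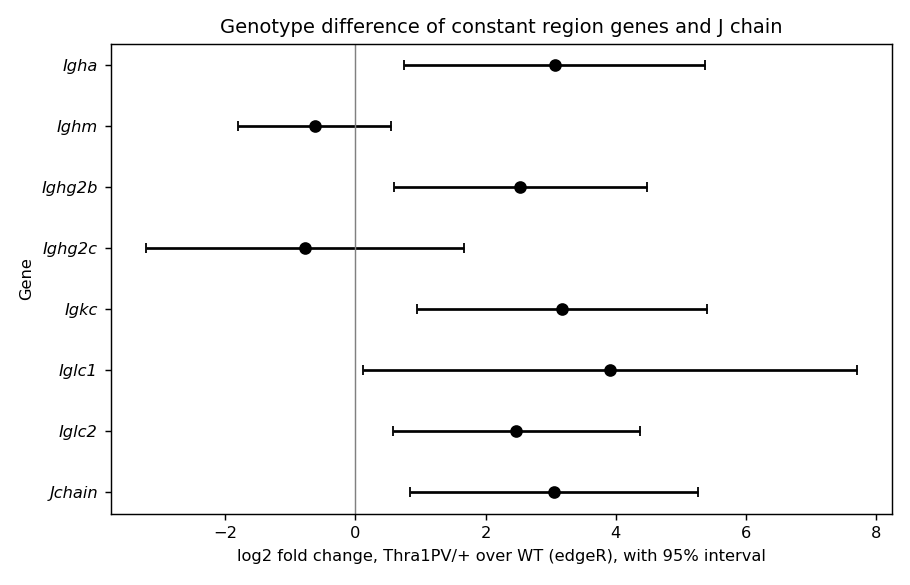
Log2 fold change of *Thra1*PV/+ over WT endometrium from edgeR's quasi-likelihood fit for the 8 tested genes, with 95% intervals that are not adjusted for the number of genes tested. The intervals of *Ighm* (-1.81 to 0.54) and *Ighg2c* span 0, and the others lie above it.

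*Igha*, *Igkc* and *Jchain* kept nearly the same proportions in every library. The number of *Igkc* counts per *Igha* count was 0.916, 1.12, 0.944 and 0.819 in *Thra1*PV/+ libraries 1 to 4, and 0.940, 0.821, 0.845 and 0.884 in WT libraries 1 to 4. The number of *Jchain* counts per *Igha* count was 0.266, 0.276, 0.255 and 0.209 in *Thra1*PV/+ libraries, and 0.257, 0.244, 0.289 and 0.239 in WT libraries. The highest ratio was thus 1.36 times the lowest for *Igkc* and 1.38 times for *Jchain*, over the 107-fold range of *Igha*. The number of *Ighm* counts per *Igha* count ranged from 0.00548 in *Thra1*PV/+ library 3 to 0.785 in WT library 1, which is 143-fold. Per length, on the scale of the deposited TPM values, *Igkc* was at 1.77 to 2.51 times the level of *Igha*, and *Jchain* at 0.178 to 0.291 times. In counts per kb, *Igkc* was at 4.11 to 5.60 times the level of *Igha* with the length of all annotated exons, and at 1.69 to 2.31 times with that of the shortest transcript.

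**Figure D3:**
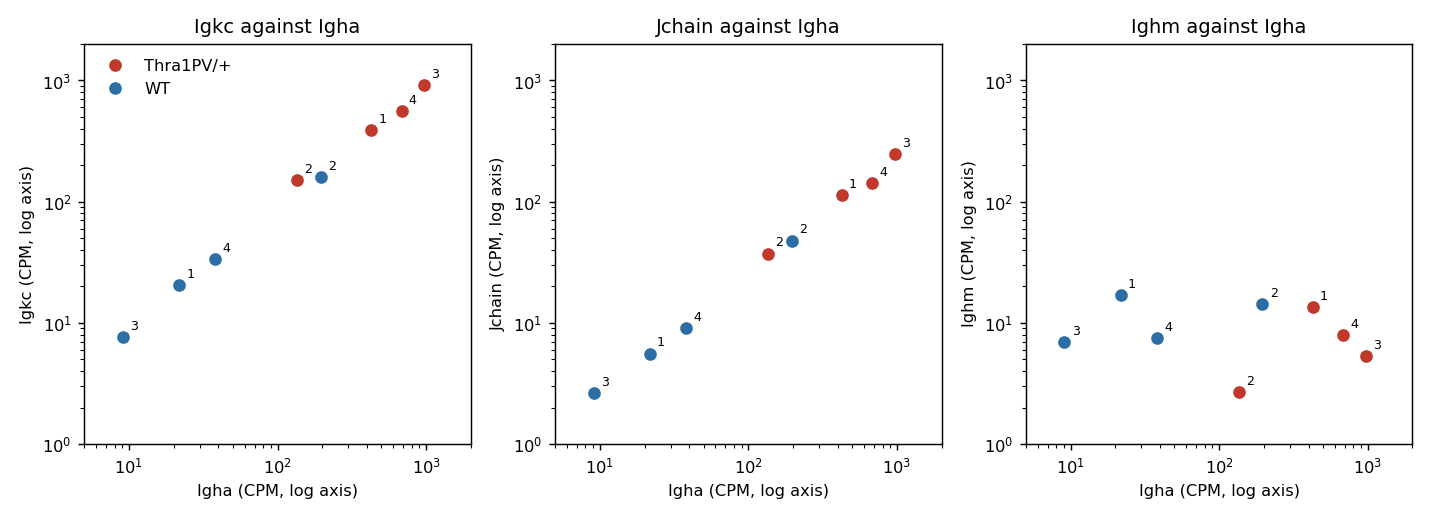
*Igkc*, *Jchain* and *Ighm* against *Igha* in the 8 libraries, in CPM on log axes, with *Thra1*PV/+ in red, WT in blue and replicate numbers beside the points. *Igkc* and *Jchain* are higher in step with *Igha* from 9.09 to 972 CPM, and *Ighm* stays between 2.68 and 17.0 CPM.

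The classes were then compared as shares of the heavy chain counts of each library, with each gene's counts divided by the length of its annotated exons. IgA made up 95.3%, 96.2%, 98.7% and 98.0% in *Thra1*PV/+ libraries 1 to 4, and 45.3%, 90.1%, 47.9% and 77.4% in WT libraries 1 to 4. Every *Thra1*PV/+ library was above every WT library, and the WT libraries were spread far more widely. The means were 97.0 ± 1.57% and 65.2 ± 22.1% (SD, n = 4 each), a difference of 31.9 percentage points (two-sided exact permutation test, p = 0.0286, the smallest that 70 arrangements can give). Adjusted over this share and the kappa share, the exact permutation p was 0.0571. The 3 WT libraries with the lowest *Igha* had the lowest IgA shares. The difference was 26.3 points without division by length and 18.8 points on the deposited TPM values, with the same exact permutation p of 0.0286 each time.

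On this scale IgM held more of the remaining heavy chain counts than IgG in every library, but only narrowly in *Thra1*PV/+ library 3 (261 and 239 counts). In that library the order turned on the deposited TPM values (IgM 0.3423%, IgG 0.444%). It also turned there with the length of the shortest transcript (IgM 0.4005%, IgG 0.4932%). The IgM share per kb was 4.30%, 2.69%, 0.766% and 1.61% in *Thra1*PV/+ libraries 1 to 4, and 50.2%, 9.36%, 51.4% and 21.6% in WT libraries 1 to 4. In WT libraries 1 and 3 IgM was slightly above IgA on this scale, but the order turned without division by length, where IgA held 53.9% and 56.6% and IgM 42.3% and 43.0%. It also turned on the deposited TPM values (IgA 67.1% and 67.7%) and with the length of the shortest transcript (IgA 60.7% and 63.8%). The IgG genes together held 0.375% to 1.13% in *Thra1*PV/+ and 0.518% to 4.53% in WT libraries, with the highest share in WT library 1. The depth behind these shares differed widely, from 808 heavy chain counts in WT library 3 to 48090 in *Thra1*PV/+ library 3. As a share of counts with no division by length, IgA in WT library 3 was 56.6% (95% Wilson interval 53.1% to 59.9%), which covers counting error only.

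The kappa chain dominated the light chains in both genotypes. In these shares lambda means *Iglc1* and *Iglc2*, and *Iglc3* is left out. *Iglc3* had 89, 19, 186 and 73 counts in *Thra1*PV/+ libraries 1 to 4, and 8, 24, 6 and 6 in WT libraries 1 to 4. Kappa made up 96.7%, 95.6%, 91.9% and 88.8% of light chain counts per kb in *Thra1*PV/+ libraries 1 to 4, and 89.9%, 94.1%, 98.7% and 99.6% in WT libraries 1 to 4. The genotypes overlapped, and the means of 93.2 ± 3.60% and 95.6 ± 4.49% (SD, n = 4 each) differed by -2.36 percentage points (two-sided exact permutation test, p = 0.429). The lambda share of *Thra1*PV/+ libraries 3 and 4, at 8.06% and 11.2%, came almost wholly from *Iglc1*, which held 94.4% and 93.9% of their lambda counts. In WT libraries 3 and 4, 5 of 391 and 7 of 1618 light chain counts were from *Iglc1* or *Iglc2*. These are 1.28% (95% Wilson interval 0.547% to 2.96%) and 0.433% (0.210% to 0.890%). The *Iglc3* counts left out there (6 in each library) were about as many, so lambda shares with *Iglc3* would be higher.

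**Figure D4:**
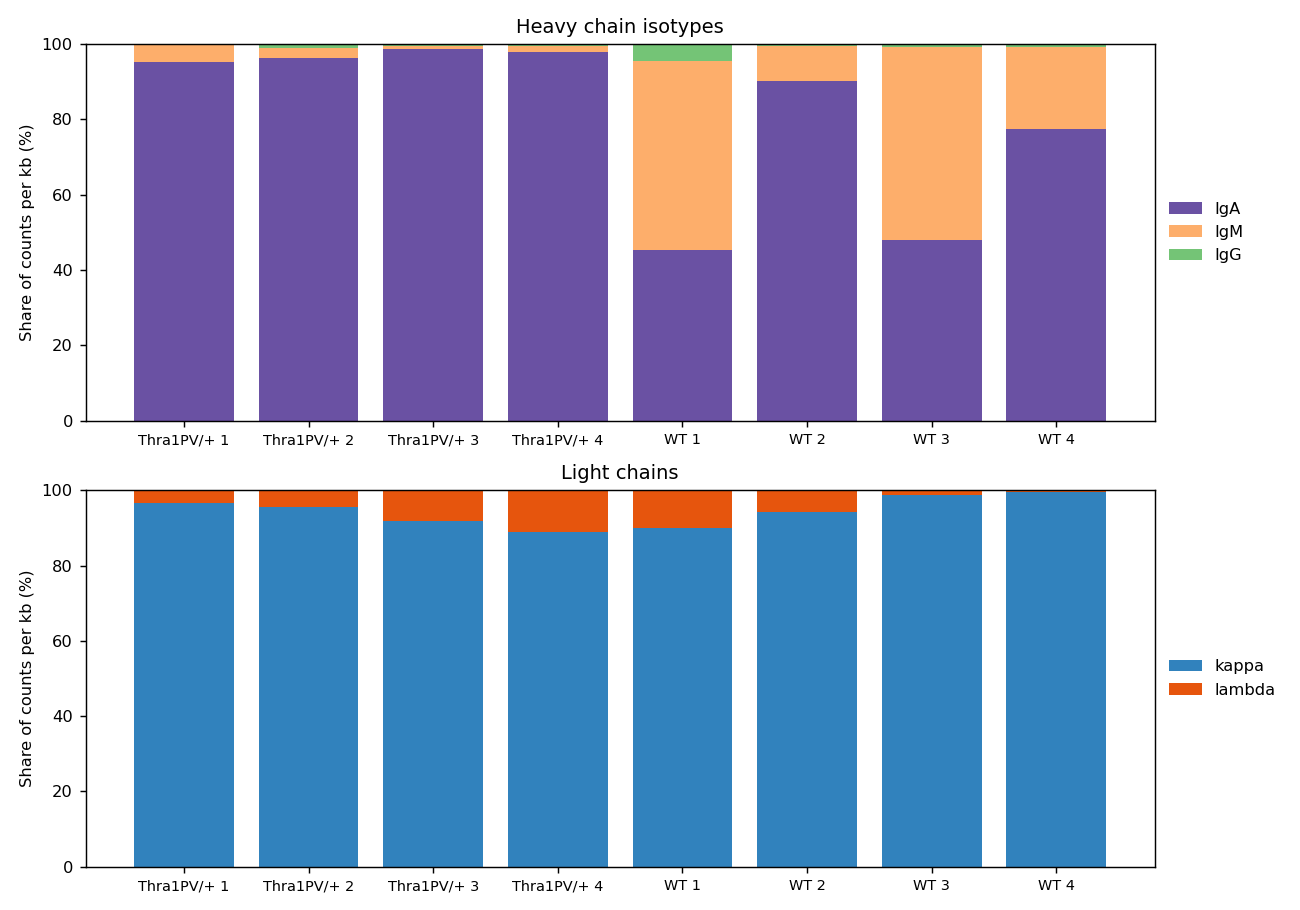
Share of heavy chain counts per kb held by IgA, IgM and IgG (top) and of light chain counts per kb held by kappa and lambda (bottom), in percent, as 1 stacked bar per library. Lambda is *Iglc1* and *Iglc2*, without *Iglc3*. IgA holds 95.3% to 98.7% in *Thra1*PV/+ libraries and 45.3% to 90.1% in WT libraries, while kappa holds over 88% in all 8.

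The variable segments, which are spliced to these constant regions in the antibody transcript, were summed beside them. The number of kappa variable segment counts per *Igkc* count was 0.555, 0.0890, 0.212 and 0.229 in *Thra1*PV/+ libraries 1 to 4, and 0.148, 0.266, 0.153 and 0.2502 in WT libraries 1 to 4. For kappa, *Thra1*PV/+ library 2 was thus the lowest and library 1 the highest, and the genotypes overlapped. Heavy chain variable segment counts per heavy chain constant count were also highest in *Thra1*PV/+ library 1 (0.199). There *Thra1*PV/+ library 2 (0.0252) was not the lowest, since WT libraries 1 and 3 were at 0.0190 and 0.02475.

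The genes of B cells and plasma cells had lower median differences than the antibody genes. For this and the lists that follow, 5.05% of all tested genes were higher at an unadjusted edgeR p under 0.05. DESeq2 called 1.89% of all genes with a p-value as higher. Of 11 tested B cell genes, edgeR and voom called 0, DESeq2 called 1 (*Cd79a*), and 2 had an unadjusted edgeR p under 0.05, both higher, with a median log2 fold change of 0.45. *Cd79a*, a signalling chain of the B cell receptor, was at 0.426 to 2.90 CPM in *Thra1*PV/+ and 0.0199 to 0.344 CPM in WT libraries, a log2 fold change of 2.58 (edgeR adjusted p = 0.341). *Blk*, a B cell tyrosine kinase, had a log2 fold change of 1.17, *Cd22*, an inhibitory receptor of B cells, of 0.86, and *Ebf1*, a B lineage transcription factor that stromal cells also express, of -0.82. The B cell surface gene *Ms4a1* was at 0.183 to 0.368 CPM in all 8 libraries, with a log2 fold change of -0.18.

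Of 15 tested plasma cell genes, edgeR called 1 as higher, DESeq2 called 2 (*Sdc1* and *Pou2af1*), and 5 had an unadjusted p under 0.05, all higher, with a median log2 fold change of 0.58. The list also holds genes at high level in all 8 libraries. Among them were *Xbp1* (151.4 to 552.5 CPM, log2 fold change -0.17) and *Txndc5* (234.1 to 376.5 CPM, log2 fold change 0.15). The median is therefore not that of genes particular to plasma cells. The gene edgeR called was *Sdc1*, the plasma cell surface proteoglycan CD138, which epithelial cells also carry. It was at 347, 569, 480 and 334 CPM in *Thra1*PV/+ libraries 1 to 4, and at 130, 88.2, 120 and 231 CPM in WT libraries 1 to 4, with no overlap. Its log2 fold change was 1.60 (SE 0.32, edgeR adjusted p = 0.0944), and leaving out any library except WT library 4 ended the call. *Sdc1* did not follow *Igha*, since it was highest in *Thra1*PV/+ library 2. *Mzb1*, a chaperone of antibody-secreting cells, was at 2.17, 1.04, 5.66 and 5.01 CPM in *Thra1*PV/+ libraries 1 to 4 and at 0.515, 2.20, 0.836 and 0.586 CPM in WT libraries 1 to 4, a log2 fold change of 1.74 (edgeR adjusted p = 0.451), and 2.45 without WT library 2. *Pou2af1*, a coactivator of antibody genes, had a log2 fold change of 2.55, and 3.72 without WT library 2. *Prdm1*, the transcription factor that drives plasma cell formation, had a log2 fold change of 1.19 (edgeR adjusted p = 0.417). It was called without WT library 2 (log2 fold change 1.82, edgeR adjusted p = 0.0523) and with no other single library left out. *Derl3*, which serves the disposal of misfolded secretory proteins, had a log2 fold change of 1.28, and *Tnfrsf17*, the plasma cell survival receptor BCMA, was at 0.470 CPM or less and was not tested.

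On the mucosal route, *Pigr* did not follow the antibody genes. It was at 600, 2182, 2730 and 2022 CPM in *Thra1*PV/+ libraries 1 to 4 and at 938, 222, 5051 and 3497 CPM in WT libraries 1 to 4, and it was lowest in WT library 2, the WT library with the most *Igha*. Its log2 fold change was -0.37 (SE 0.85, edgeR adjusted p = 0.936), and 0.30 without WT library 3. Of 12 tested genes of this route, edgeR, DESeq2 and voom called 0 and 1 had an unadjusted edgeR p under 0.05, with a median log2 fold change of 0.06. That gene was *Tgfb1*, a cytokine that directs switching to IgA, with a log2 fold change of 0.70 (edgeR adjusted p = 0.341). *Itgb7*, a homing integrin chain, had a log2 fold change of 0.90, *Ccr10*, a homing receptor of IgA plasma cells, of 0.99 (0.19 without *Thra1*PV/+ library 3 and 2.05 without WT library 2), and *Tnfsf13b*, the B cell survival factor BAFF, of -0.50.

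Of 12 tested receptors and binding proteins for antibodies, edgeR, DESeq2 and voom called 0 and 3 had an unadjusted edgeR p under 0.05, all higher, with a median log2 fold change of 0.62. They were the IgG receptor gene *Fcgr3* with a log2 fold change of 0.98, the shared receptor chain gene *Fcer1g* with 0.59, and *Fcamr*, a receptor for IgA and IgM, with 1.74 (2.87 without WT library 4). The IgG receptor gene *Fcgr4* had a log2 fold change of 0.89.

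The 5 genes outside the antibody loci whose log2 CPM was most like that of *Igha* over the 8 libraries, of 14622 compared, were *Asb16* (Pearson r = 0.966), *Gm10069* (0.958), *Batf* (0.932), *Atp13a2* (0.927) and *Hoxb9* (0.926). For *Igkc* they were *Asb16* (0.970), *Gm10069* (0.950), *Batf* (0.933), *Pir* (0.929) and *Ankrd6* (0.927). For *Jchain* they were *Asb16* (0.963), *Gm10069* (0.945), *Atp13a2* (0.933), *Batf* (0.931) and *Ankrd6* (0.927). Among the members, *Igha* had an r of 0.998 with *Igkc* and 0.999 with *Jchain*, and of -0.12 with *Ighm*. These values describe 8 libraries of 2 genotypes, with the highest taken from many genes.

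Other cell types also differed between the libraries. The 9 squamous epithelium genes summed to 2853 to 4484 CPM in *Thra1*PV/+ and 1.57 to 65.5 CPM in WT endometrium, with 8 of 9 called as higher by edgeR. The 6 smooth muscle genes summed to 12640 CPM in WT library 1, and to 125 to 1094 CPM in the other 7 libraries, and the 6 blood genes to 179 CPM in WT library 1 and 14.6 to 57.5 CPM elsewhere. At an unadjusted edgeR p under 0.05, 6 of 6 tested smooth muscle genes were lower in *Thra1*PV/+, beside 4.72% of all tested genes. Their median log2 fold change was -4.31, and edgeR and voom called 0. *Myh11* and *Actg2* did not overlap between the genotypes, and the other smooth muscle genes did. Of 5 tested blood genes, 2 were lower at that threshold, with a median log2 fold change of -1.78. Without WT library 1, the log2 fold change was 2.83 for *Igha*, 2.96 for *Igkc* and 2.83 for *Jchain*, and the IgA share differed by 25.2 percentage points. The 12 T cell genes summed to 19.5 to 50.3 CPM in *Thra1*PV/+ and 13.3 to 34.2 CPM in WT endometrium, the 8 macrophage genes to 121 to 338 and 127 to 228 CPM, and the 8 neutrophil genes to 79.7 to 739 and 9.73 to 146 CPM. At an unadjusted edgeR p under 0.05, 5 of 12 tested T cell genes and 4 of 6 tested neutrophil genes were higher, and 0 were lower. For the 7 tested macrophage genes both numbers were 0. The median log2 fold changes were 1.0 for T cell, 2.02 for neutrophil and 0.17 for macrophage genes. In the T cell and neutrophil lists, edgeR and voom called 0 and DESeq2 called 2 in each as higher. The part of these cell types in the antibody results was not tested. For the labelled tissue, the 8 stromal genes summed to 579 to 5004 CPM, the 7 gland genes to 1521 to 26130 CPM and the 5 simple epithelial genes to 1653 to 4660 CPM over all 8 libraries, so stromal and epithelial markers were present in each. The gland sum was mostly *Ltf* (1290 to 16020 CPM) and *Lcn2* (85.7 to 10100 CPM). Of the other gland genes, *Foxa2* was at 12.2 to 35.1 CPM and *Cxcl15* at 0.259 to 122 CPM. *Spink1*, *Prss28* and *Prss29* did not pass the filter on low counts. *Thra* itself was at 80.1 ± 34.2 CPM in *Thra1*PV/+ and 78.0 ± 33.7 CPM in WT endometrium (SD, n = 4 each), and *Thra* counts do not tell the PV allele from the WT allele.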

How the data were processed

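The 8 libraries, from the endometrium of 4 *Thra1*PV/+ and 4 WT mice, were analysed, with groups and replicate numbers from the sample labels. The authors trimmed reads with Trimmomatic, quantified them with salmon for mouse genome mm10 (versions and annotation release are not given in the sources used here) and deposited estimated counts per gene without normalization. The deposited TPM values were also used. Their sorted values differed by at most 0.291 TPM between libraries, which is the form quantile normalization gives, and 1 further column was left out because it could not be mapped to a sample. How salmon divided reads between near-identical genes cannot be seen in the counts.

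Estimated counts were rounded to whole numbers and tested with edgeR 4.0.16 (filterByExpr with minimum count 10 and minimum total 15, TMM, quasi-likelihood test, genotype only) in R 4.3.3, with Benjamini-Hochberg adjustment over 18174 genes. Standard errors came from the F statistic of each gene. Shares were compared by exact permutation tests. Correlations used log2 CPM with a prior count of 2. Positions and transcript sequences are from GENCODE M21 (GRCm38), in which all 10 members have the same identifier version. Length means the union of annotated exons. The fits were tested on simulated data.

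The members, gene lists and tests were chosen with earlier results of these data known. Named genes are the 10 members, the other constant region genes, up to 4 tested genes of the smallest p from each list of B cell, plasma cell, mucosal route and antibody receptor genes, and *Sdc1*, *Mzb1*, *Tnfrsf17*, *Ms4a1* and *Pigr* (1 further gene of this rule is not reported here), and for likeness 5 genes of mean log2 CPM of at least 0. Alternatives were DESeq2 1.42.0, limma 3.58.1 (voom weights, log2 TPM with a pseudocount of 1 or 0.1), other scalings, filters, thresholds and lengths, the replicate number as a block, and libraries left out.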

Additional observations from a re-analysis of the deposited data

Results flagged for a closer look

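Within each genotype, the log2 CPM of the 8 tested members, the 4 shares and 3 ratios between genes were checked for a library far from the other 3, by the gap to its neighbour as a share of the group's range. In the 30 groups checked, chance flags about 1 in 20, or 1.5 in all, and 3 were found. *Ighg2b* in *Thra1*PV/+ library 3 reached 2.11 log2 CPM, and the other 3 libraries of that genotype lay between 0.08 and 0.42. *Ighg2b* in WT library 3, where it had 1 count, was at -4.10 log2 CPM, and the other 3 WT libraries lay between -1.39 and -0.85. The IgG share of heavy chain counts per kb was 4.53% in WT library 1 and 0.518% to 0.932% in the other 3 WT libraries. That library also stood apart in smooth muscle and blood genes, and the part of this in its IgG share was not tested.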

How the results depend on the processing

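The number of members called was 0 with edgeR, 5 with DESeq2 and 3 with voom quality weights. It was 6 at an unadjusted p under 0.05, and 0 to 3 with 1 library left out, where WT library 2 gave the 3. With *Thra1*PV/+ library 2 and WT library 2 both left out (chosen after seeing the data) it was 3. The share of all tested genes called in that run is not given here. The other alternatives gave 0, and the cause was not tested. The log2 fold change of *Ighg2c* turned to 1.10 with voom weights, 0.14 without WT library 1 (range with 1 library left out, -1.18 to 0.14) and 0.42 without *Thra1*PV/+ library 2 and WT library 1. The other 7 tested members kept their direction in every alternative run, *Igha* at 2.65 to 4.94, *Igkc* at 2.72 to 4.94, *Jchain* at 2.59 to 4.89, *Iglc1* at 3.39 to 8.04, *Iglc2* at 2.07 to 3.58, *Ighg2b* at 1.03 to 3.0 and *Ighm* at -1.06 to -0.08. *Ighg2b* had 1.03 on log2(TPM + 1), a scale that understates changes of low genes.

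The B and plasma cell genes called (1, *Sdc1*) were 3 with DESeq2, 7 at an unadjusted p under 0.05, 0 to 1 with 1 library left out, and 0 with 10 counts in every library, robust dispersion, an adjusted p of 0.05, or the library pairs left out. *Pigr* turned to 0.40 with voom weights, 0.33 on log2 TPM with either pseudocount, 0.30 without WT library 3 (range with 1 library left out, -0.71 to 0.30) and 0.03 with the replicate block. *Tnfsf13b* turned to 0.03 without *Thra1*PV/+ library 2 and WT library 2.

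The difference in IgA share ranged from 18.8 to 40.2 points over all alternatives and stayed positive. Without 1 library it was 25.2 to 40.2 points, and its exact permutation p was 0.0571 when any 1 of the 4 *Thra1*PV/+ libraries was left out (31.3 to 32.5 points) and 0.0286 when any 1 of the 4 WT libraries was. The kappa difference ranged from -4.25 to -0.87 points. Same-numbered libraries did not consistently deviate together, with correlations of same-numbered deviations of 0.269, -0.436, 0.340 and -0.159. For replicate 3 the value was above the highest with another number (0.303), so these values cannot settle whether the samples were paired. With the replicate block, 0 members and 0 B and plasma cell genes were called, *Igha* had a log2 fold change of 3.97, and the IgA share differed by 31.9 points (exact sign flips, p = 0.125, the smallest possible).

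Depth limited *Ighg1*, *Ighg2c*, *Ighg3* and, in WT libraries 3 and 4, the lambda genes, which had few counts. Shares between genes depend on the lengths used.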
